A study of Neurospora crassa with 2 samples.

Results

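The 6 genes described here let Neurospora crassa, a filamentous ascomycete fungus, grow on acetate and make sugar from small carbon compounds. They were chosen by their identifiers in the deposited gene expression table, where all 6 were found among 9454 genes, and all 6 passed the filter of at least 5 RPKM (reads scaled to gene model length and to the library total) in at least 1 library. They are acu-3 (NCU04230, isocitrate lyase), acu-9 (NCU10007, malate synthase), acu-5 (NCU06836, acetyl-CoA synthetase), acu-6 (NCU09873, phosphoenolpyruvate carboxykinase), fbp-1 (NCU04797, fructose-1,6-bisphosphatase) and acu-15 (NCU06656, a transcriptional activator). RNA sequencing of hyphae compared a upf1 knockout strain (the mutant) with a wild-type strain. UPF1 is the RNA helicase that drives nonsense-mediated mRNA decay, which removes transcripts that stop translation too early. Per the labels, both strains grew alike, on minimal slants for 2 weeks and then for 2 days in constant light in medium with 2% glucose, and polyadenylated RNA from 3 separate flasks was pooled per strain. The labels do not give the strain backgrounds, and do not say which part of upf1 was removed.

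Acetate enters metabolism when acetyl-CoA synthetase joins it to coenzyme A. Isocitrate lyase and malate synthase then form the glyoxylate bypass, which runs in peroxisome-related bodies called glyoxysomes and skips the steps of the citric acid cycle that release carbon dioxide, so that acetyl units yield net C4 acids. Phosphoenolpyruvate carboxykinase and fructose-1,6-bisphosphatase carry out the steps of gluconeogenesis that get round the one-way reactions of glycolysis, and ACU-15 activates acetate-induced genes. Fungi generally hold these genes down while glucose is plentiful and induce them on acetate. Loci named acu were first found as mutants that cannot use acetate.

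Each strain is 1 pooled library, so no difference has a replicate check, no test was possible and no p-value is given. The mutant library held 56306422 reads in the table and the wild-type library 28189643. The targeted gene was examined first: upf1 (NCU04242, RefSeq symbol prd-6) stood at 2.78 RPKM in the mutant and 22.6 RPKM in wild type, the direction of the labels. Ratios printed as folds are reads over library totals, and the range in brackets is an exact 95% Clopper-Pearson interval, which reflects counting error alone. A gene was called higher or lower from 2-fold after 1 was added to each RPKM (log2(RPKM + 1)), and this makes differences of weakly expressed genes look smaller.

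Of the 6 genes, 1 passed 2-fold on the higher side in the mutant library and none did on the lower side. Among all 7367 eligible genes the shares were 16.5% higher and 5.52% lower, so that 1 of 6 is near the background and says nothing of the group. The median log2 ratio of the 6 was -0.06, against 0.15 over all eligible genes. The gene past 2-fold was acu-6. The other gluconeogenic gene, fbp-1, lay on the higher side within 2-fold, the glyoxylate gene acu-9 and the acetate gene acu-5 had nearly the same levels in both libraries, and acu-3 and the regulator gene acu-15 lay on the lower side within 2-fold.

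**Figure D1:**
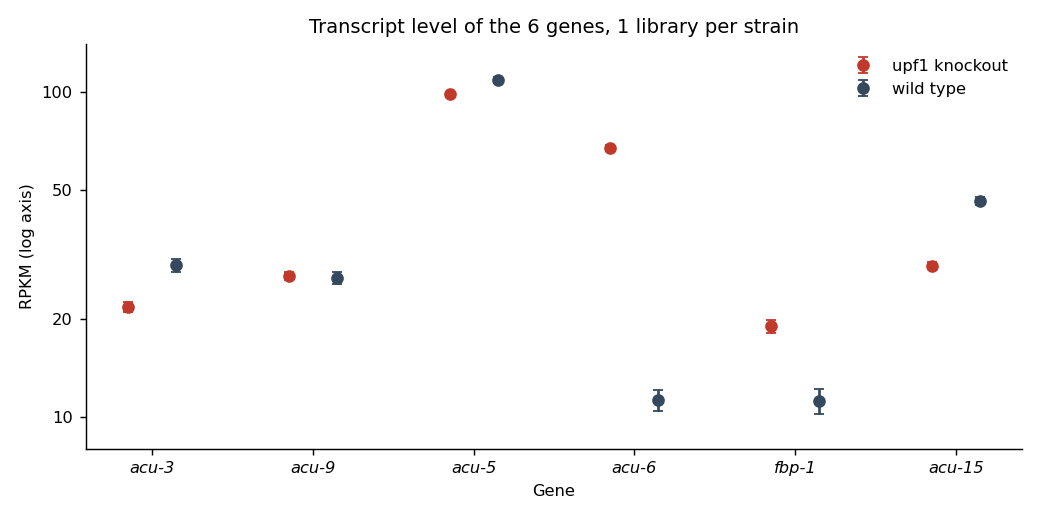
Transcript level in RPKM (log axis) of each of the 6 genes in the upf1 mutant library (red, left of each pair) and the wild-type library (dark, right), 1 pooled library per strain; bars are exact 95% Poisson intervals of the reads and cover counting error only. acu-6 stands at 67.2 RPKM in the mutant and 11.3 in wild type, while acu-9 stands at 27.1 and 26.8.

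Phosphoenolpyruvate carboxykinase opens gluconeogenesis by turning oxaloacetate into phosphoenolpyruvate. Its gene, acu-6, had 8790 reads and 67.2 RPKM in the mutant library, against 731 reads and 11.3 RPKM in the wild-type library. That is 5.96-fold higher in the mutant (5.52 to 6.43), with a log2 ratio of 2.47. Of the 7367 eligible genes, 137 (1.86%) had a log2 ratio at least as high. By level acu-6 was the 1695th gene of the table in the mutant and the 5386th in wild type. The gene spans positions 1825084 to 1828323 of supercontig 6 (plus strand), as the deposited table places it, on a genome build that the table does not name. Its gene model spans 3240 bp and the length behind its RPKM is 2193 bp, so 1047 bp of the span were left out of the length, more than for any other of the 6 genes.

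RefSeq lists con-3, a name of the conidiation series, as a synonym of acu-6. Conidia, the airborne spores, are the other cell type that hyphal cultures can hold, and their markers differed in both directions. Of 13 conidiation genes matched by symbol or product, 11 were eligible, with 4 higher and 4 lower, where 16.5% of all eligible genes were higher and 5.52% lower. con-8 stood at 228 RPKM in the mutant and 6.25 in wild type, con-6 at 642 and 27.4, con-10 at 18.0 and 4.91, and con-13 at 5.56 and 1.12. The call of con-13 was lost with a pseudocount of 5, and that of con-10 with length centring, which subtracts the median ratio of genes of like length. The gene of the rodlet protein of the spore coat, eas, stood at 1619 RPKM in the mutant and 15983 in wild type, and the conidiation regulator gene fl at 17.7 and 47.2. The regulator genes acon-2, acon-3 and csp-1 stood at 3.25, 1.22 and 32.1 RPKM in the mutant, against 4.34, 5.15 and 34.0 in wild type, and the call of acon-3, the lower one, was also lost with a pseudocount of 5. No marker was at 0 reads in either library. The summed level of all 13 was 2681 RPKM in the mutant and 16256 in wild type, and without eas 1062 and 273. Most of the mutant sum without eas came from con-6 and con-8, so it does not stand for the other markers. In pooled RNA, more cells of a type and more RNA per cell cannot be told apart, and the part of conidia in the acu-6 difference was not tested.

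Fructose-1,6-bisphosphatase makes fructose 6-phosphate near the end of gluconeogenesis. Its gene, fbp-1, had 1799 reads and 19.0 RPKM in the mutant, against 524 reads and 11.2 RPKM in wild type. This was 1.70-fold higher in the mutant (1.54 to 1.88), with a log2 ratio of 0.72 that fell short of the 2-fold rule. 1773 of the eligible genes (24.1%) had a ratio at least as high, so the value is common in these libraries. The gene spans positions 854430 to 856202 of supercontig 6 (minus strand). In the wild-type library fbp-1 and acu-6 had the same level within counting error, 11.2 RPKM (10.3 to 12.2) for fbp-1 and 11.3 RPKM (10.5 to 12.1) for acu-6. In the mutant library acu-6 stood 3.53 times as high as fbp-1. This within-library ratio does not depend on the library totals, and it was 3.50-fold higher than in wild type (3.10 to 3.96). Like the other within-library ratios, it is not free of differences by gene length. The median log2 ratio was 0.80 in the shortest of 20 length bins and -0.15 in the longest. It was 0.05 in the bin that holds acu-6 and 0.20 in the bin that holds fbp-1. After subtraction of these medians the log2 ratios were 2.42 for acu-6 and 0.51 for fbp-1.

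Both glyoxylate bypass genes lay within 2-fold. acu-3, which encodes the isocitrate lyase that splits isocitrate into glyoxylate and succinate, had 2879 reads and 21.8 RPKM in the mutant, against 1917 reads and 29.3 RPKM in wild type. It was 1.34-fold lower in the mutant (1.27 to 1.42), with a log2 ratio of -0.41, and 18.8% of the eligible genes had a ratio as low or lower. acu-9, which encodes the malate synthase that joins glyoxylate to an acetyl unit, had 4454 reads and 27.1 RPKM in the mutant, against 2184 reads and 26.8 RPKM in wild type. Its ratio was 1.01 with a counting interval of 0.960 to 1.06 that included 1. The table describes acu-9 as a variant and RefSeq lists 2 transcripts for it, which counts per gene do not tell apart. acu-3 spans positions 5289821 to 5292173 of supercontig 5 (plus strand), and acu-9 positions 710761 to 713665 of supercontig 1 (minus strand).

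Although acu-3 and acu-9 encode consecutive enzymes, their order differed between libraries. acu-3 stood at 0.804 times the level of acu-9 in the mutant and at 1.09 times that level in wild type, a within-library ratio that was 1.36-fold lower in the mutant (1.26 to 1.47). acu-3 lies 35932 bp from upf1 on the same supercontig, with 10 gene models between them. Of the 6 of these that were eligible, 1 was at least 2-fold higher and 1 at least 2-fold lower. Among all eligible genes 16.5% were higher and 5.52% lower, and so few genes say nothing of the region. The median log2 ratio of these 6 was 0.16, against 0.15 over all eligible genes.

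acu-5, whose acetyl-CoA synthetase activates acetate, was the most abundant of the 6 in both libraries. It had 16661 reads and 98.0 RPKM in the mutant, against 9116 reads and 108 RPKM in wild type. The mutant value was 1.10-fold lower (1.08 to 1.13), with a log2 ratio of -0.14. The gene spans positions 1822841 to 1826382 of supercontig 2 (plus strand). acu-5 was above 88.3% of all genes in the mutant and 90.6% in wild type, in cultures that the labels place in glucose medium.

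acu-15 encodes the transcription factor that activates acetate-induced genes. It had 6445 reads and 29.1 RPKM in the mutant, against 5043 reads and 46.0 RPKM in wild type. It was 1.58-fold lower in the mutant (1.52 to 1.64), the lowest log2 ratio of the 6 at -0.64, and 11.3% of the eligible genes had a ratio as low or lower. The gene spans positions 4145313 to 4149137 of supercontig 5 (minus strand). Within each library, acu-6 stood at 2.31 times the level of acu-15 in the mutant and at 0.245 times in wild type. By their single ratios, 1.58-fold lower for acu-15 and 5.96-fold higher for acu-6 in the mutant, the 2 transcripts lay on opposite sides of a ratio of 1.

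**Figure D2:**
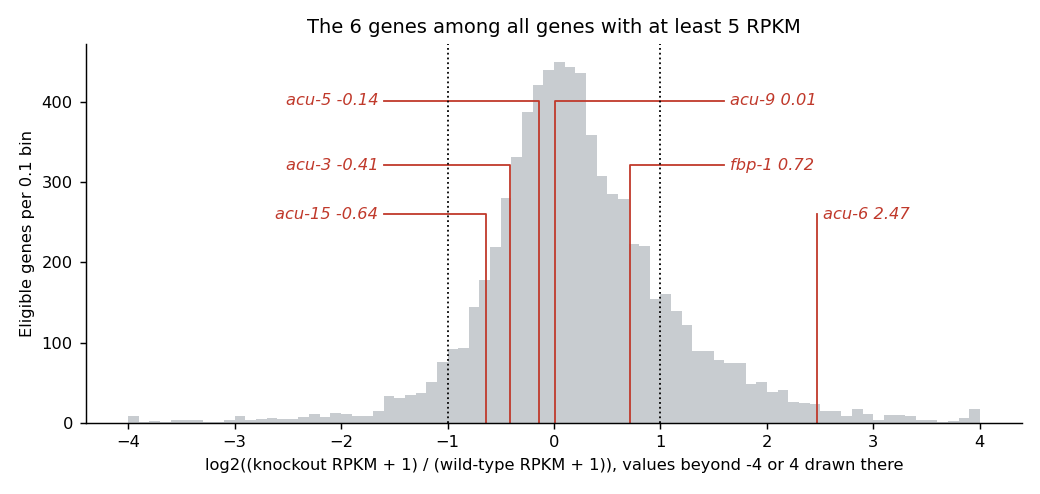
Distribution of the log2 ratio, knockout over wild type, over the 7367 eligible genes (bars, number of genes per bin of 0.1), with the 6 genes marked in red and dotted lines at 2-fold. acu-6 at 2.47 lies past the 2-fold line, and the other 5 lie between -0.64 and 0.72.

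The order of the 6 levels differed between libraries. In the knockout it ran from acu-5 (98.0 RPKM) through acu-6 (67.2), acu-15 (29.1), acu-9 (27.1) and acu-3 (21.8) to fbp-1 (19.0), and the counting intervals of neighbours did not overlap. In the wild type it ran from acu-5 (108) through acu-15 (46.0), acu-3 (29.3) and acu-9 (26.8) to acu-6 (11.3) and fbp-1 (11.2). There the intervals of acu-6 and fbp-1 overlapped. Those of acu-3 (28.0 to 30.6) and acu-9 (25.7 to 28.0) nearly met. Over the 15 pairs of the 6 genes, the within-library ratio differed by at least 2-fold between libraries for 7 pairs, of which 5 include acu-6. The remaining pairs were fbp-1 with acu-15 and fbp-1 with acu-3. These pairs restate the 6 single ratios and add nothing to them. With acu-6 at a log2 ratio of 2.47 and the next gene, fbp-1, at 0.72, every pair with acu-6 had to pass 2-fold. The share over pairs of all eligible genes was not computed.

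The 2 gluconeogenic genes and the glycolytic genes they oppose lay on opposite sides of a ratio of 1. Pyruvate kinase (ace-8), which turns phosphoenolpyruvate into pyruvate, stood at 302 RPKM in the mutant and 784 in wild type, 2.59-fold lower in the mutant (2.56 to 2.63). Its gene model overlaps that of NCU06074, and the use of strand in counting is not known here, so this value is uncertain. The ratio of acu-6 to ace-8 was 0.222 in the mutant and 0.0144 in wild type, a 15.5-fold difference (14.3 to 16.7). 6-phosphofructokinase (emp-3), which makes fructose 1,6-bisphosphate, stood at 142 RPKM in the mutant and 302 in wild type, 2.13-fold lower in the mutant (2.09 to 2.16). The ratio of fbp-1 to emp-3 was 0.134 in the mutant and 0.0370 in wild type, a 3.62-fold difference (3.28 to 3.99). These differences of within-library ratios restate the single ratios of the 4 genes and add nothing to them. The share over pairs of all eligible genes was not computed here either. In both libraries the glycolytic transcript was the more abundant of each pair.

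The glyoxylate and acetate genes were set against genes of enzymes that act on the same metabolites. Isocitrate is also oxidised by isocitrate dehydrogenase, and the ratio of acu-3 to its subunit genes was 0.161 in the mutant and 0.200 in wild type for tca-6, and 0.0841 and 0.125 for tca-4. The ratio of acu-9 to the citrate synthase gene cit-1, whose enzyme likewise uses acetyl-CoA, was 0.0951 in the mutant and 0.0855 in wild type. Acetyl-CoA hydrolase is the product named for acu-8, another acetate locus, and the ratio of acu-5 to acu-8 was 2.98 in the mutant and 2.35 in wild type. The relative of isocitrate lyase that splits 2-methylisocitrate in propionate breakdown, NCU02481, stood at 12.8 RPKM in the mutant and 20.1 in wild type, on the lower side like acu-3. NCU02481 overlaps NCU02480, and reads shared between relatives may have been split by the counting.

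**Figure D3:**
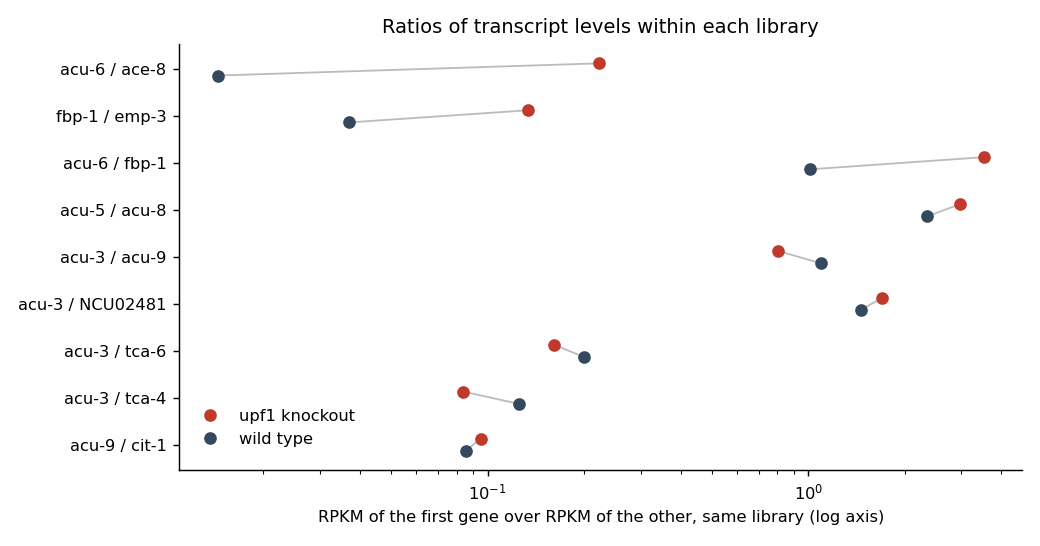
Ratio of the RPKM of 2 genes within the same library (log axis), in the upf1 mutant library (red) and the wild-type library (dark). The ratio of acu-6 to the pyruvate kinase gene ace-8 is 0.222 in the mutant and 0.0144 in wild type, and that of fbp-1 to the phosphofructokinase gene emp-3 is 0.134 and 0.0370; the ratio of acu-6 to fbp-1 is 3.53 and 1.01, and the other pairs differ less.

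Genes of the adjoining pathways were taken by symbol and product name and are read against the same 16.5% higher and 5.52% lower. The list of acetate entry genes had 8 members besides the 6 genes, of which 7 were eligible, 1 was higher and 1 lower, and the median log2 ratio was 0.14. Both were matched through part of another name, a phenylacetyl-CoA ligase (NCU00677) and an oxaloacetate carrier (NCU07884). Without them 5 genes were eligible. That all 5 lay within 2-fold follows from this trim, which was made after values were seen, and is no separate result. Among the 5, acu-8 stood at 32.9 RPKM in the mutant and 46.0 in wild type and the acetate kinase gene NCU02712 at 35.5 and 29.8. Of 3 methylcitrate cycle genes, which serve propionate breakdown, the 2-methylcitrate synthase gene tca-2 was higher, at 46.6 RPKM in the mutant and 16.0 in wild type (2.92-fold, 2.74 to 3.11). The dehydratase gene NCU00680 stood at 42.5 and 48.0 RPKM.

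Citric acid cycle genes lay close to a ratio of 1. Of 21 members, all eligible, 1 was higher and none lower, and the median log2 ratio was 0.01. The higher one, NCU09811, named as a succinyl-CoA synthetase subunit, stood at 28.4 RPKM in the mutant and 13.6 in wild type, but its log2 ratio of 1.01 fell under the 2-fold rule with a pseudocount of 5, median centring, TMM scaling (trimmed mean of M-values) and length centring. It overlaps NCU09810, which bears the same name and stood at 51.1 RPKM in the mutant and 94.1 in wild type. The malate dehydrogenase gene NCU04122, which overlaps NCU04121, stood at 35.9 and 64.3 RPKM and passed 2-fold on the lower side with TMM scaling and length centring. Besides true cycle enzymes the name search took in lys-5 of lysine synthesis and the citrate-cleaving NCU06785 (128 RPKM in the mutant and 222 in wild type). Without them the median was 0.06.

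Genes that supply or carry C4 acids had 2 of 10 members higher and 1 lower, and the median log2 ratio was -0.15. The mitochondrial dicarboxylate transporter gene NCU10732 stood at 41.7 RPKM in the mutant and 8.61 in wild type, 4.85-fold higher (4.43 to 5.31), and remained past 2-fold in each alternative setting. Another gene model of the same name, NCU10733, stood at 16.7 and 17.4 RPKM. The NAD-dependent malic enzyme gene NCU02906 stood at 19.7 RPKM in the mutant and 8.52 in wild type, a log2 ratio of 1.12 that fell under 2-fold with a pseudocount of 5, median centring, TMM scaling and length centring. The NADP-dependent malic enzyme gene NCU03651 stood at 85.5 and 121 RPKM, and the oxaloacetate carrier gene NCU07884 at 8.96 and 19.6, which was short of 2-fold with a pseudocount of 5. Of 2 genes that bear on fructose 2,6-bisphosphate, the inhibitor of fructose-1,6-bisphosphatase, 1 was eligible: NCU09347, named as the enzyme that removes it, stood at 41.8 RPKM in the mutant and 28.4 in wild type, and overlaps NCU09348.

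The list of reversible steps shared by glycolysis and gluconeogenesis had 6 of 16 eligible members lower and 2 higher, and the median log2 ratio was -0.51. It also took in, by symbol, the kinase genes emp-1 and emp-3 of one-way steps, and emp-3 was among the lower members. The enolase gene emp-7 stood at 1001 RPKM in the mutant and 4610 in wild type, the glyceraldehyde 3-phosphate dehydrogenase gene gpd-1 at 1644 and 4530, and the phosphoglycerate kinase gene pgk, which overlaps NCU07913, at 276 and 839. The 2 higher members, NCU06256 and NCU11201, were among 6 entries known only by the product name phosphoglycerate mutase, and the call of NCU11201 was lost with length centring. Without these 6, emp-1 and emp-3, 8 genes were eligible. Of them 5 were lower and none higher, and the median log2 ratio was -1.12. This trim was chosen after values were seen and took out both higher members. NCU07550 and NCU04401, which also lack a symbol, were kept, so the trimmed values are no separate result. One-way glycolytic kinases had 2 of 7 members lower, ace-8 and emp-3, and none higher, and the median log2 ratio was -0.46. The lower call of emp-3 is thus counted in both lists. The hexokinase entry NCU06996 stood at 40.2 RPKM in the mutant and 22.2 in wild type, and the glucokinase entry NCU00575 at 123 and 195.

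Genes between pyruvate, ethanol and acetate differed in both directions. Of 23 eligible members of 24, 8 were higher and 3 lower, and the median log2 ratio was 0.69. The balance of calls was not firm: there were 5 higher and 5 lower with TMM scaling, and 5 higher and 4 lower with length centring. Over all eligible genes the shares were 12.9% higher and 7.79% lower with TMM scaling, and 11.5% and 8.16% with length centring. The alcohol dehydrogenase gene adh-1 stood at 23.4 RPKM in the mutant and 688 in wild type, 29.4-fold lower (28.5 to 30.4), although it overlaps NCU01753. The gene mig-6, named as a zinc-containing alcohol dehydrogenase, stood at 642 and 168 RPKM. The aldehyde dehydrogenase entry NCU03415 stood at 0.920 and 11.0 RPKM. Another aldehyde dehydrogenase entry, NCU07053, had 814 reads in the mutant and 0 in wild type. It was 134-fold higher when 3 reads are put in place of 0, and the lower limit of its Clopper-Pearson interval was 109-fold. Many members of this list are named only by enzyme class, and their substrates are not known from the table. All 8 higher ones are alcohol or aldehyde dehydrogenase entries, so the median does not stand for the route from pyruvate to acetate. Of the entries named pyruvate decarboxylase, cfp stood at 1073 RPKM in the mutant and 1973 in wild type, and ilv-5 at 102 and 56.6, both within 2-fold.

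Fatty acid oxidation and peroxisome genes, which produce acetyl units and build the compartment of the glyoxylate enzymes, had 6 of 48 eligible members higher, and the median log2 ratio was 0.24. The 3-hydroxyacyl-CoA dehydrogenase entry NCU11451 stood at 17.3 RPKM in the mutant and 3.52 in wild type, and the peroxisomal membrane protein gene NCU03151, which overlaps NCU03150, at 1329 and 442. The peroxisomal amine oxidase gene NCU05518, which overlaps NCU05517, stood at 12.1 and 3.05 RPKM, and the dehydratase gene NCU09138 at 45.7 and 18.7.

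Regulators of carbon catabolite repression, which keeps genes for other carbon sources off in glucose, had 1 of 10 eligible members higher and none lower, and the median log2 ratio was -0.06. The higher one, clr-1, is a regulator of cellulose use rather than of repression itself, and the other 9 lay within 2-fold. clr-1 stood at 24.5 RPKM in the mutant and 8.24 in wild type, 2.97-fold higher (2.77 to 3.18). The SNF1 kinase gene prk-10 stood at 53.6 and 35.6 RPKM, the repressor gene rco-1 at 49.1 and 61.3 and the creC entry NCU03965 at 5.75 and 7.00. The gene of the repressor CRE-1 itself, cre-1, stood at 65.6 RPKM in the mutant and 68.7 in wild type.

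**Figure D4:**
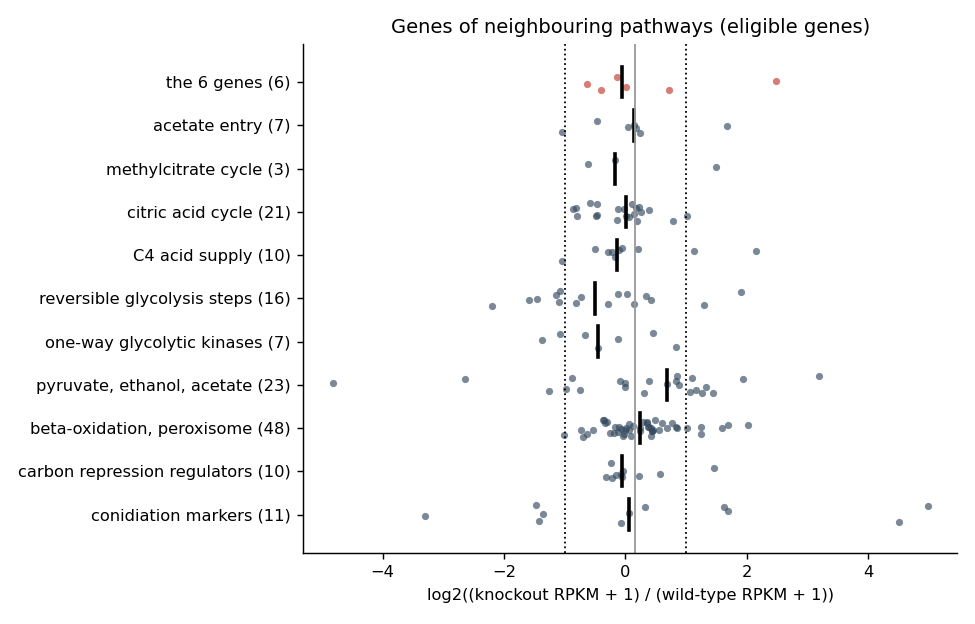
log2 ratio, knockout over wild type, of the 6 genes (red) and of the eligible genes of each adjoining list (dark points, number in brackets); black bars are list medians, the grey line is the median of all eligible genes at 0.15 and dotted lines mark 2-fold. The list of reversible glycolysis steps, which also holds the one-way kinase genes emp-1 and emp-3, has a median of -0.51. The citric acid cycle genes have one of 0.01.

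None of the 6 gene models overlapped another gene model of the table. The gene model 72 bp from acu-6, NCU09872, had 10 mutant reads and 0 wild-type reads, and that 67 bp from acu-15, NCU06657, had 11 and 1. acu-9 lies 3315 bp from tca-14, the fumarate hydratase gene, which stood at 141 RPKM in the mutant and 108 in wild type. fbp-1 lies 1080 bp from the 3-ketoacyl-CoA thiolase gene NCU04796, which stood at 32.3 and 32.9 RPKM.

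The genes with a RefSeq symbol whose levels were nearest to each member's were found by distance on the scale of log2(RPKM + 1) over the 2 libraries, among 1104 genes. With 2 libraries such likeness means only similar levels in both. For acu-6 they were the mitochondrial chaperone gene hsp78 (78.1 RPKM in the mutant and 13.8 in wild type, distance 0.35) and the phosphate transporter gene pho-5 (89.9 and 11.2, distance 0.41). No other member was as far from its nearest gene. For fbp-1 they were mdm12 and gh61-9, for acu-3 camk-2 and pmr-1, for acu-9 stk-27 and smco-7, for acu-5 mak-1 and pcb-7, and for acu-15 vel and nit-2, at distances of 0.018 to 0.081.

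Other scalings left the calls of the 6 genes as they were. The log2 ratio of acu-6 ranged from 2.15 with a pseudocount of 5 to 2.56 with a pseudocount of 0.1, and that of fbp-1 from 0.51 to 0.76. acu-15 ranged from -0.82 to -0.58, acu-3 from -0.59 to -0.36 and acu-5 from -0.32 to -0.10. For acu-9 the sign was not firm, with values of -0.16 to 0.06. TMM scaling moved the median of all eligible genes to -0.02, a shift that the 6 values share. Relative to the median gene acu-6 stood at 2.32, fbp-1 at 0.56, acu-9 at -0.14, acu-5 at -0.29, acu-3 at -0.56 and acu-15 at -0.79. Small list medians had no firm sign either: with TMM scaling that of the acetate entry genes was -0.04, that of the citric acid cycle genes -0.17, with 0 higher and 2 lower, and that of the conidiation markers -0.12. In that setting 12.9% of all eligible genes were higher and 7.79% lower.

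**Figure D5:**
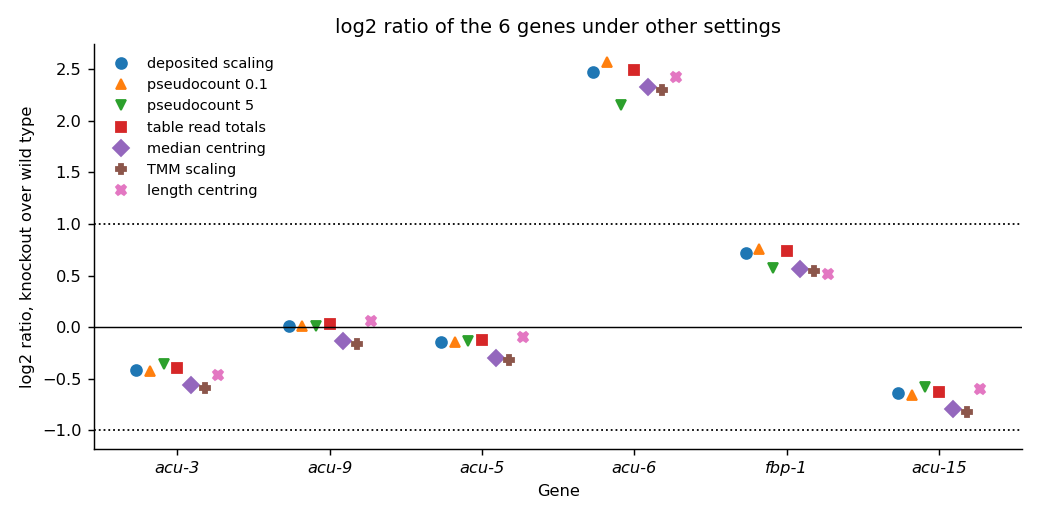
log2 ratio, knockout over wild type, of the 6 genes with the deposited scaling and 6 other settings (symbols), with dotted lines at 2-fold. acu-6 lies between 2.15 and 2.56 and the other 5 lie between -0.82 and 0.76 in the settings drawn; acu-9 is the gene whose sign differs between settings.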

How the data were processed

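The deposited table, made by the authors, gives raw read counts and RPKM values per gene for 1 pooled library per strain, per the file headers. Column names share their first letters with the sample titles, which assigned every value column to a strain. The aligner Bowtie (0.12.2) comes from the submitters' processing notes. Genome build, annotation, counting method and use of strand were not given in the sources used here. Library totals of 59645570 reads (upf1 mutant) and 29546475 reads (wild type) were recovered from reads and RPKM of gene models without introns. RefSeq symbols (assembly NC12) matched 8930 of 9454 identifiers. No sequence was used.

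Genes were compared as the log2 of mutant over wild-type RPKM after adding 1 to each, and eligibility needed 5 RPKM or more in either library. Folds have exact Clopper-Pearson intervals (scipy 1.17.1) and within-library ratios 95% logit intervals on 4 read counts. As reads carry no molecular identifiers, all intervals cover counting error only. For 0 reads the limit is 3 reads, or 0.0503 RPKM (mutant) and 0.102 RPKM (wild type) at 1 kb. TMM factors came from edgeR 4.0.16, used for scaling only, length centring used 20 bins, and the steps were tested on simulated data.

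The 6 genes and the lists were chosen with earlier results of these data known. The rule for named genes took the 6, upf1, the 4 eligible genes of each list with the largest absolute log2 ratio, the 2 nearest genes in level per member, relatives by product name, and 9 conidiation markers. The genes emp-1, lys-5, NCU11201, NCU10733, cre-1, tca-4, tca-6, cit-1, tca-14, NCU04796, NCU09872 and NCU06657 were added after values were seen. So were cfp, ilv-5, the overlapping models and the trimmed lists. For the fatty acid oxidation and peroxisome list, 1 gene is not reported here.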

Additional observations from a re-analysis of the deposited data

How the results depend on the processing

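With 1 pooled library per strain, differences cannot be set against variation between cultures, and no replicate could be left out. No paired analysis was possible because each strain has 1 library and no test was run. The alternatives were pseudocounts of 0.1 and 5, no filter, a filter at 20 RPKM, median centring, TMM scaling, length centring and totals of the table's reads. Under all 8 the count of the 6 genes stayed at 1 higher, acu-6, and 0 lower. The changes of filter leave every log2 ratio as it is, so they could alter this count only by dropping a gene. With the filter at 20 RPKM, fbp-1 was not eligible and 774 genes were at least 2-fold higher, against 1214, because fewer genes were eligible. Among eligible genes past 2-fold, 1214 were higher and 407 lower with the deposited scaling, 978 and 547 with median centring, 954 and 574 with TMM scaling and 849 and 601 with length centring. The log2 ratio of upf1 was -2.65, and -2.98 with a pseudocount of 0.1, -1.83 with a pseudocount of 5, -2.80 with median centring and -2.80 with TMM scaling. The adjoining lists together, without the conidiation markers, had 22 of 143 eligible genes higher (15.4%, against 16.5% of all eligible genes) and 12 lower (8.39%, against 5.52%), and 16 to 24 higher and 9 to 16 lower over the alternatives. Over these alternatives the shares of all eligible genes were 11.3% to 17.8% higher and 4.07% to 8.16% lower. Depth does not limit the 6 genes: the fewest reads were 524, for fbp-1 in wild type.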
